A study of Mus musculus with 24 samples.

Results

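The coagulation and complement genes described here encode plasma proteins that the liver secretes, and they were taken as the rows of the deposited count table whose symbol is on a fixed list of 40 names. This list was written with earlier results of these data known. Counts of the 40 genes set beside those of all genes are therefore descriptions and not independent evidence. All 40 were found among the 53467 genes of the table, and all 40 were among the 19381 genes that reached 0.5 CPM, the count of a gene scaled to the size of its library, in at least 2 livers. The coagulation cascade is a series of zymogens that cleave and activate each other until thrombin converts fibrinogen to fibrin, with inhibitors that stop the proteases and plasmin that dissolves the clot. Complement is a parallel cascade in which lectin, antibody or spontaneous activation converges on C3 and then on the terminal proteins that form a pore in the target membrane. Hepatocytes are the main source of most of these proteins in plasma, and several of them respond to inflammation as acute phase proteins.

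The data are RNA sequencing counts from bulk liver of 24 male C57BL/6JAusb mice, 1 library per mouse. At 14 to 15 weeks of age every mouse received 0.8 µg of a Sleeping Beauty (SB) transposase plasmid by hydrodynamic tail vein injection, alone or with 10 µg each of the plasmids for AKT and c-Met or for AKT and NRas. From day 8 to 10 they were given 10 to 11 intraperitoneal injections, over 5 to 6 weeks, of saline or of the hepatotoxin thioacetamide (TAA), at 100 mg/kg first and 200 mg/kg afterwards. The 6 groups, with the oncogene groups named below by c-Met or NRas alone, were SB + saline with 4 mice and SB + TAA with 4, SB/AKT/c-Met + saline with 3, SB/AKT/c-Met + TAA with 4, SB/AKT/NRas + saline with 4, and SB/AKT/NRas + TAA with 5. The control livers therefore also carried the transposase injection. The oncogenes were a myristoylated AKT, a mutant NRas under the CAGGS promoter and c-Met under the EF1a promoter, none of which is restricted to hepatocytes. Transposition reaches only a fraction of the cells, so each library mixes transfected with other tissue. In such bulk samples, fewer cells of a type and less RNA per cell cannot be told apart.

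The libraries held 2152510 to 3399247 counts, and the 40 genes together took 2.28% to 3.84% of them. Levels are CPM scaled by the trimmed mean of M values (TMM). The TMM factors of SB + saline were 0.772 to 0.818, below those of all other livers (0.846 to 1.19), so a gene with an equal share of the counts is placed higher in SB + saline. Scaling by library size alone shifted the median log2 fold change of all genes against SB + saline from between 0.02 and 0.09 to between 0.28 and 0.50, and results that depend on this are given beside their values. SB + TAA replicate 4 stood apart by its skeletal muscle transcripts, whose 10 markers summed to 7320 CPM against at most 34.2 in every other liver. This liver had the lowest value of its group in 28 of the 40 genes. NRas + saline replicate 1 had the lowest TMM factor outside SB + saline and the highest value of its group in 31 of the 40 genes. The share of alignment records assigned to genes was 15.6% to 16.69% in SB + saline, with 15478 to 16478 genes counted. In livers with TAA these were 19.41% to 23.13% and 16838 to 19026. In oncogene livers with saline they were 13.75%, in NRas + saline replicate 1, to 23.94% and 16279 to 18411. The part of this difference in the comparisons was not tested.

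By TMM, most coagulation and complement genes were at their highest in SB + saline. The mean was highest in that group for 32 of the 40 genes and lowest in NRas + TAA for 20. The low TMM factors of SB + saline place genes higher there, and the shares over all genes were not computed. With library size alone, 5 to 14 genes per comparison had a log2 fold change above 0 instead of below it. By the edgeR F test across the 6 groups, 13 of 40 genes differed at an adjusted p under 0.05, where 9.01% of all genes did. These were C8a, C8b and Hc of terminal complement, C4b, the inhibitors Serping1, Proc and Serpind1, the clotting factors F2, F5, F7, F9 and Klkb1, and Plg. With library size alone 9 differed, and leaving out 1 liver moved the count to 4 to 8 without a SB + saline liver, 8 without NRas + TAA replicate 2 and 25 without NRas + saline replicate 1. The shares of all genes in these fits are not given here. The 5 comparisons with SB + saline share its 4 livers, so they are given side by side and not as separate evidence.

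**Figure D1:**
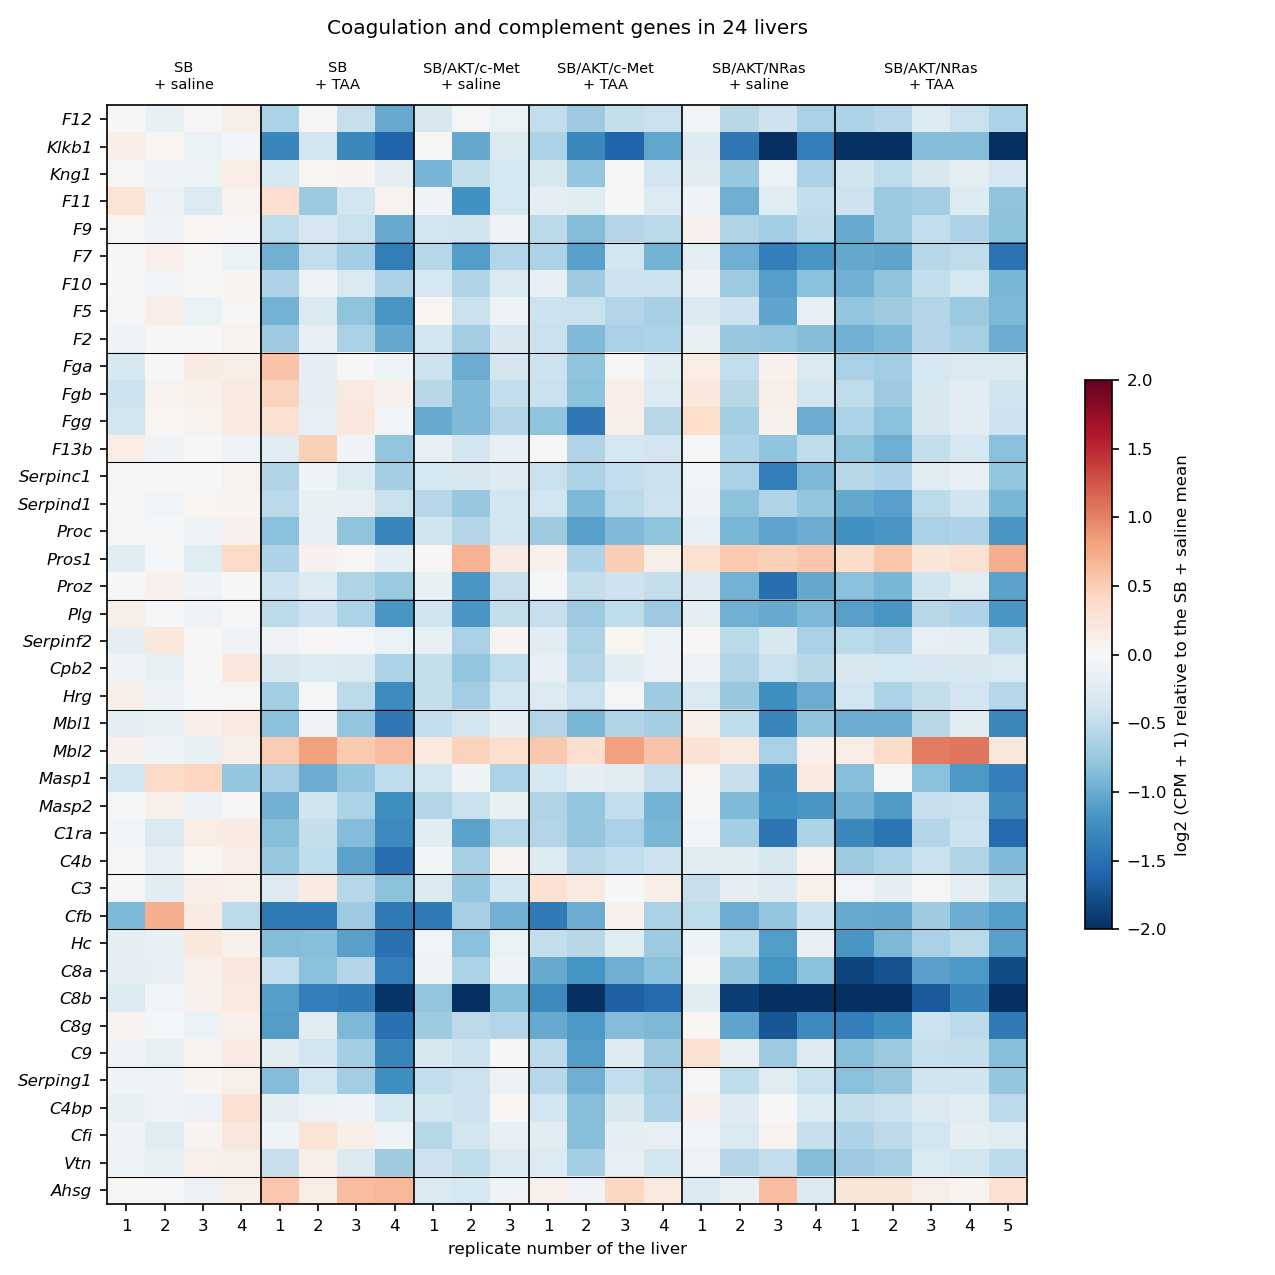
The heatmap shows log2 (CPM + 1) of the 40 genes (rows, in order of their role, lines between roles) in the 24 livers (columns, by group and replicate number), each relative to the mean of SB + saline. Blue is lower and red higher than that mean, colours end at 2 in either direction, and C8b and Klkb1 reach the darkest blue in NRas livers while Mbl2 is red in most livers outside SB + saline; TMM scaling contributes to the blue, as 5 to 14 genes per comparison lie above 0 instead of below it with library size alone.

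Against SB + saline, 11 of the 40 genes fell in SB + TAA and 0 rose, where 2.51% of all genes fell and 3.48% rose. In NRas + saline 10 fell and 0 rose (background 2.84% lower and 5.56% higher), in c-Met + TAA 6 fell and 0 rose (background 1.07% lower and 2.68% higher), and in NRas + TAA 21 fell and 1 rose (background 3.55% lower and 5.7% higher). In c-Met + saline 0 of the 40 genes were called by edgeR, where 0.0413% of all genes were lower and 0.599% higher. DESeq2 called 1 and limma-voom 0 there, with their shares of all genes not given here. By edgeR 15 had an unadjusted p under 0.05, as did 10.1% of all genes. There 38 of the 40 log2 fold changes were below 0, where 45.4% of all genes were. The falls were mostly under 2-fold: of the called genes 1 exceeded it in SB + TAA (Hc), 1 in NRas + saline (Klkb1), 1 in c-Met + TAA (C8a) and 3 in NRas + TAA (C8b, Klkb1 and C8a), against 4.17%, 6.03%, 3.01% and 5.92% of all genes.

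The median log2 fold change of the 40 genes was −0.53 in SB + TAA, −0.39 in c-Met + saline, −0.44 in NRas + saline, −0.52 in c-Met + TAA and −0.66 in NRas + TAA. The medians over all genes were 0.09, 0.02, 0.07, 0.04 and 0.07. With library size alone the medians of the 40 genes were −0.16, −0.13, −0.02, −0.14 and −0.28 in the same order, and 9, 9, 14, 12 and 5 of the 40 passed from below to above 0. Relative to the median of all genes, which moved with the scaling, the 40 genes stood at −0.62, −0.41, −0.51, −0.56 and −0.73 by TMM and at −0.62, −0.41, −0.52, −0.55 and −0.74 by library size. These differences are close under both scalings by construction, since a change of scaling moves all genes by about the same amount, and they are no sign of stability. Among all called genes the share that were higher was 58.1%, 66.2%, 71.4% and 61.6% by TMM in SB + TAA, NRas + saline, c-Met + TAA and NRas + TAA, and 92.2%, 94.3%, 94.3% and 92.2% by library size. By library size 2 of the 40 genes were called higher and 2 lower in SB + TAA, where 14.2% of all genes were higher and 1.2% lower. In NRas + saline 1 was higher and 1 lower (all genes 17.9% and 1.08%), in c-Met + TAA 1 and 2 (9.46% and 0.573%), and in NRas + TAA 3 and 10 (18.1% and 1.53%). By TMM all livers of the group lay below all SB + saline livers in 21, 21, 12, 23 and 28 of the 40 genes in SB + TAA, c-Met + saline, NRas + saline, c-Met + TAA and NRas + TAA. Of all genes 5.2%, 4.85%, 4.27%, 5.6% and 6.12% did so by TMM. With library size alone the counts were 8, 13, 7, 11 and 17 of the 40. The shares of all genes were not computed for that scaling, so the TMM shares are no background for these counts.

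The 5 terminal complement genes among the 40 were Hc, C8a, C8b, C8g and C9, which encode part of the membrane pore. C6 and C7 of the pore were not among the 40. By the edgeR F test across the 6 groups C6 differed (adjusted p = 0.0308) and C7 did not (adjusted p = 0.519). The 5 held the largest called changes in SB + TAA (Hc), c-Met + TAA (C8a) and NRas + TAA (C8b), while 0 of the 5 passed in either saline group with oncogenes. In NRas + TAA all 5 of these fell, in SB + TAA C8a and Hc fell, and in c-Met + TAA C8a and C8g did. C8a and C8b encode the alpha and beta chains of C8, which inserts the pore into the membrane, and the genes lie side by side and convergent on chromosome 4 (C8a 104815679 to 104876398, minus strand, and C8b 104766317 to 104804548, plus strand, GRCm38). Their promoter sequences are shown because both genes fell together most in NRas + TAA. They come from RefSeq (GRCm38.p6), 250 bases before to 50 after the start site, on the strand of the gene. Capitals mark matches to GTTAAT or to the STAT site TTCNNNGAA, searched on both strands. GTTAAT is only part of a site for HNF1 (hepatocyte nuclear factor 1), and is called the partial HNF1 motif below. The sequences are C8a at chr4:104876349-104876648, which holds a match to each, and C8b at chr4:104766067-104766366, which holds a match to the partial HNF1 motif.
C8a: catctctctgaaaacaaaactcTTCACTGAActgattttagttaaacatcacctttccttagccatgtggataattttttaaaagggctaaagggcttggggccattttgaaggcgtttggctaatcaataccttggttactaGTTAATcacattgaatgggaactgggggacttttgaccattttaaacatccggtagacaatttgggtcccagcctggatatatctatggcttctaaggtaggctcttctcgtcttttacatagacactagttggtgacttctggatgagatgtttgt
C8b: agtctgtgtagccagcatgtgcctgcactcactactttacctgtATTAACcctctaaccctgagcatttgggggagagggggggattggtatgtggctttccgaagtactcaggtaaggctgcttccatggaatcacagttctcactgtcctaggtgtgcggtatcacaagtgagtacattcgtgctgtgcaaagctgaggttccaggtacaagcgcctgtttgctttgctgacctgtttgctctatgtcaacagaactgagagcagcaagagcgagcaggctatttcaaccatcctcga
Of the 40 genes, 32 had a promoter in that table. Of these, 11 (34.4%) held the partial HNF1 motif and 8 (25%) the STAT site. The C/EBP site TTGCNNAA was held by 12 (37.5%) and the TATA box TATAAA by 5 (15.6%). Of all 32851 promoters of the table, 7.1%, 8.3%, 10.8% and 13.6% held these motifs, in the same order. A match is a description of these letters and not a bound site.

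C8a in the 4 SB + saline livers stood at 405, 413, 499 and 538 CPM. It was at 328, 260, 310 and 177 CPM in SB + TAA and at 231, 202, 236 and 259 CPM in c-Met + TAA. In NRas + TAA its 5 livers held 129, 138, 219, 208 and 133 CPM. All 3 TAA groups lay below the controls without overlap, and the NRas combination was lowest. In c-Met + saline C8a was at 438, 298 and 444 CPM and in NRas + saline at 454, 267, 202 and 259 CPM, both overlapping the controls. The log2 fold change was −0.79 ± 0.23 (SE; edgeR adjusted p = 0.0374) in SB + TAA, −1.0 ± 0.23 (adjusted p = 0.0106) in c-Met + TAA and −1.49 ± 0.22 (adjusted p = 6.36e-05) in NRas + TAA. The last 2 calls passed in all 33 settings tried, library size alone included. The call in SB + TAA was lost with library size alone (adjusted p = 0.131).

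Leaving out Cfb, which had 0 to 6 counts per liver, C8b had the widest range of group means in the set, 5.2-fold from highest to lowest. Its SB + saline livers were at 293, 339, 375 and 406 CPM, and its NRas + TAA livers at 30.4, 34.4, 109, 139 and 26.6 CPM. Every liver of the combination lay below every control, and replicates 3 and 4 stood above the other 3. The fold change was −2.38 ± 0.49 (log2; edgeR adjusted p = 0.0023), or 0.192 times the control level, and it passed in all 33 settings. In NRas + saline the livers spread from 24.2 CPM in replicate 3 to 301 in replicate 1, with 95.0 and 66.4 between them, and the change did not pass (−1.55 ± 0.51, adjusted p = 0.0585, and 0.0459 with library size alone). It did not pass either in SB + TAA (163, 137, 132 and 90.3 CPM, adjusted p = 0.0962), c-Met + saline (205, 78.6 and 196 CPM, adjusted p = 0.49) or c-Met + TAA (146, 63.3, 113 and 121 CPM, adjusted p = 0.0654), where all livers were nevertheless below the controls.

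C8b was lower relative to C8a outside the controls, a ratio that does not depend on the scaling and was chosen after the values were seen. The ratio of C8b to C8a counts was 0.723 to 0.821 in the 4 SB + saline livers and at most 0.668 in every other liver. It was 0.426 to 0.527 in SB + TAA, 0.263 to 0.468 in c-Met + saline and 0.314 to 0.635 in c-Met + TAA. In the groups with NRas it ran from 0.12 to 0.663 with saline and from 0.20 to 0.668 with TAA. The gamma chain gene C8g, on chromosome 2, was at 894 to 1051 CPM in SB + saline and at 365 to 724 CPM in NRas + TAA (log2 −0.93 ± 0.27, edgeR adjusted p = 0.0251). It was at 441 to 533 CPM in c-Met + TAA (−0.98 ± 0.28, adjusted p = 0.0492), a call that passed in 8 of the 24 fits that each left out 1 liver.

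**Figure D2:**
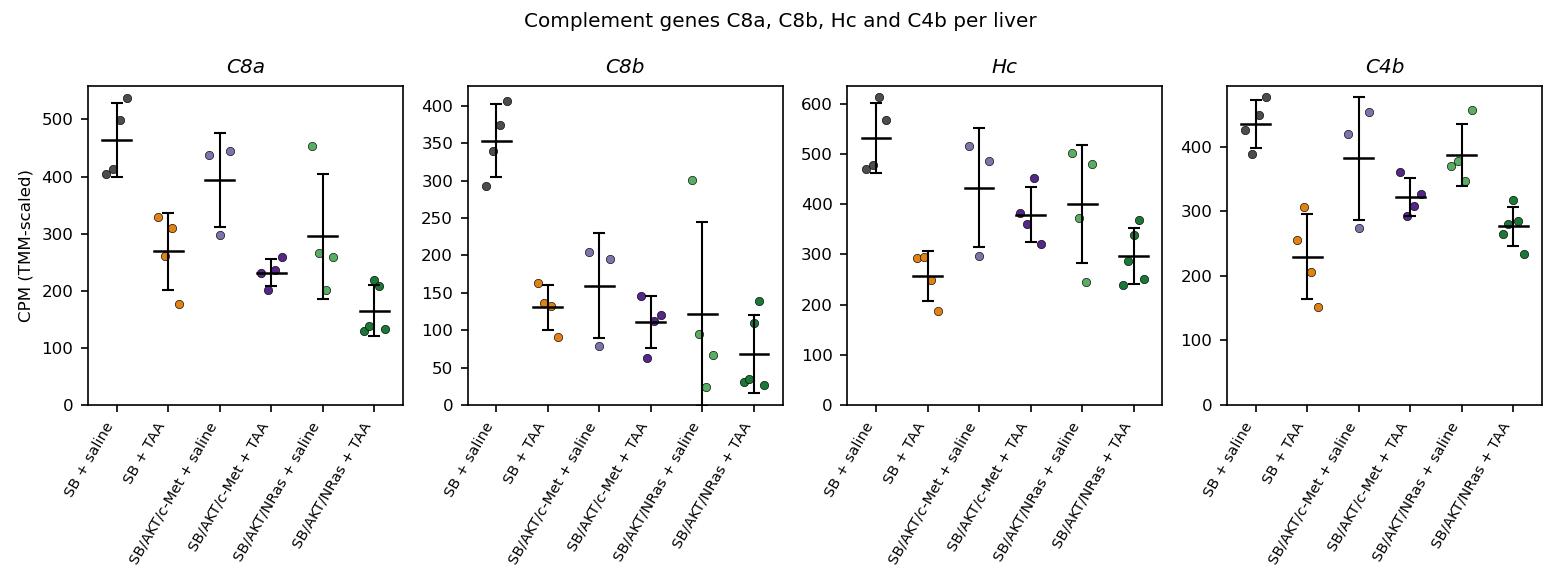
The dot plots show CPM (vertical axis, from 0) of C8a, C8b, Hc and C4b in each liver by group, with the group mean as a line and ± SD as bars. The controls lie highest for all 4 genes, C8a and C8b are lowest in NRas + TAA and Hc and C4b in SB + TAA; with library size alone the falls of Hc and C4b in SB + TAA and of C8a and C8b in NRas + TAA still pass, and those of Hc and C4b in NRas + TAA do not.

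Hc encodes complement C5, the substrate from which the terminal pathway starts, and lies on chromosome 2 (34983331 to 35061438, minus strand). Its controls held 471, 479, 614 and 568 CPM and its SB + TAA livers 293, 295, 250 and 188 CPM, with no overlap. That is a log2 fold change of −1.06 ± 0.21 (edgeR adjusted p = 0.00378), which passed in all 33 settings. In NRas + TAA the levels were 238, 286, 340, 368 and 251 CPM (−0.85 ± 0.20, adjusted p = 0.007, and 0.0611 with library size alone). In c-Met + TAA they were 383, 361, 452 and 322 CPM and did not pass (adjusted p = 0.221). The saline groups with oncogenes, at 297 to 516 CPM with c-Met and 245 to 502 with NRas, overlapped the controls. C9, the protein that polymerises into the pore, fell in NRas + TAA (−0.67, adjusted p = 0.0375, and 0.266 with library size alone).

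The lectin and classical pathways start complement on sugars and on antibodies, and their 6 genes went both ways. C4b, which encodes C4 (chromosome 17, 34728380 to 34743882, minus strand), was at 426, 388, 448 and 477 CPM in SB + saline and at 256, 306, 206 and 151 CPM in SB + TAA. The 2 groups did not overlap, and the log2 fold change of −0.92 ± 0.18 (edgeR adjusted p = 0.00341) passed in all 33 settings. In NRas + TAA C4b was at 265, 280, 318, 285 and 234 CPM (−0.65 ± 0.17, adjusted p = 0.0149, and 0.288 with library size alone). It did not pass in c-Met + TAA, at 293 to 361 CPM, nor in the saline groups, at 274 to 453 CPM with c-Met and 347 to 457 with NRas. C1ra, a protease of the C1 complex, was at 138 to 190 CPM in the controls, at 69.8 to 122 in SB + TAA (−0.85 ± 0.25, adjusted p = 0.0447) and at 57.6 to 126 in NRas + TAA (−1.0 ± 0.24, adjusted p = 0.00778). The second of these passed in all 33 settings, and the first in 11 of the 24 fits that each left out 1 liver. C4b and C1ra have close relatives, C4a and C1rb, so their counts are uncertain as far as reads were shared.

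Mannose-binding lectins recognise sugars on microbes, and the mouse has 2 of them, Mbl1 and Mbl2. Mbl2 was the only one of the 40 genes that edgeR with TMM called higher in any comparison, so it is described although its choice followed from its values. In SB + saline it was at 470, 416, 399 and 476 CPM, and in NRas + TAA at 488, 567, 908, 929 and 515 CPM. All 5 livers were above the controls, replicates 3 and 4 by most, for a log2 fold change of 0.63 ± 0.20 (edgeR adjusted p = 0.0424). This call passed in 10 of the 24 fits that each left out 1 liver, and its adjusted p was 0.000182 with library size alone. Mbl2 was also above all controls in SB + TAA (626 to 782 CPM, 0.63 ± 0.21), c-Met + saline (504 to 609 CPM, 0.34 ± 0.22) and c-Met + TAA (556 to 778 CPM, 0.58 ± 0.21), without passing the test (adjusted p = 0.0718, 0.621 and 0.123). Scaled by library size alone it passed in SB + TAA (adjusted p = 0.000624) and in c-Met + TAA (adjusted p = 0.000996).

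Mbl1 was at 317 to 411 CPM in SB + saline and at 149 to 312 CPM in NRas + TAA, where it fell by 0.76 on the log2 scale (SE 0.24, edgeR adjusted p = 0.0446, and 0.152 with library size alone). The ratio of Mbl2 to Mbl1 counts, which is free of the scaling and was chosen after the values were seen, was 1.00 to 1.48 in SB + saline. It was 2.27 to 5.06 in SB + TAA, where the highest value was replicate 4, 2.66 to 3.26 in c-Met + TAA and 2.69 to 3.66 in NRas + TAA. In the saline groups it was 1.75 to 2.17 with c-Met and 1.36 to 2.27 with NRas. The livers of all 3 TAA groups were above every SB + saline liver, and only NRas + saline overlapped the controls. Masp2, a protease that the lectins activate, fell in SB + TAA (−0.78, adjusted p = 0.0411), NRas + saline (−0.73, adjusted p = 0.0456) and NRas + TAA (−0.81, adjusted p = 0.0155), and passed in none of the 3 with library size alone. Masp1 was low, at 9 to 29 counts per liver, and passed nowhere.

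**Figure D3:**
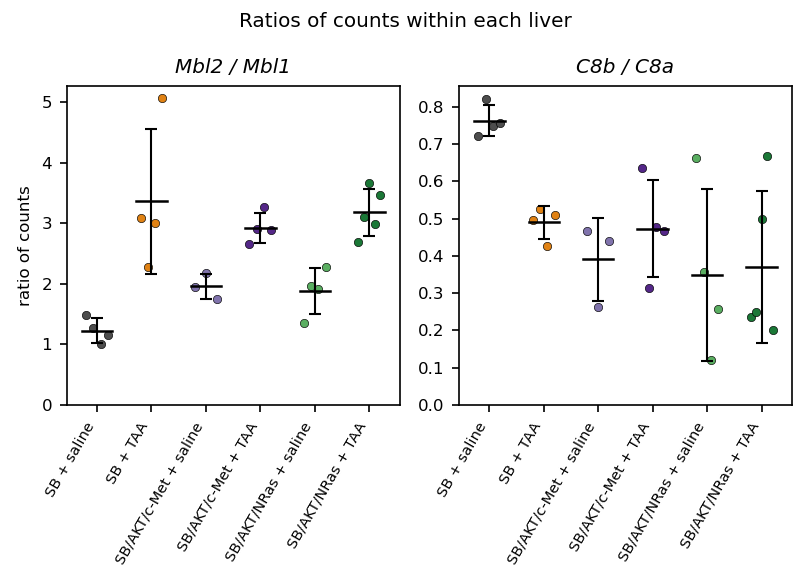
The dot plots show the ratio of Mbl2 to Mbl1 counts and of C8b to C8a counts (vertical axes, from 0) in each liver by group, with the group mean as a line and ± SD as bars; neither ratio depends on the scaling. For Mbl2 to Mbl1 every liver with TAA lies above every SB + saline liver, and for C8b to C8a every liver of the other 5 groups lies below them.

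C3, on which all complement pathways converge, did not pass in any comparison with SB + saline, at log2 fold changes between −0.46 and 0.15. Cfb, the protease of the alternative pathway, had 0 to 6 counts per liver. Of its exon bases 79.5% are shared with the gene Gm20547, listed at 0 in every liver, so its level is uncertain and no change is read from it. Among the 4 complement regulators, Serping1 fell in 3 groups. It encodes the C1 inhibitor, which stops C1r, C1s, kallikrein and factor XII, and lies on chromosome 2 (84765387 to 84775444, minus strand).

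Serping1 in SB + saline was at 573, 563, 624 and 650 CPM. In SB + TAA it was at 330, 464, 371 and 257 CPM, in c-Met + TAA at 406, 305, 427 and 380 CPM and in NRas + TAA at 336, 355, 458, 457 and 353 CPM. Every liver of these 3 groups was below the controls, and the groups overlapped each other. In the same order the log2 fold changes were −0.76 ± 0.18 (edgeR adjusted p = 0.00981), −0.67 ± 0.18 (adjusted p = 0.0267) and −0.62 ± 0.17 (adjusted p = 0.0156). With library size alone the adjusted p were 0.0569, 0.184 and 0.236. In the saline groups it stood at 429 to 558 CPM with c-Met and 421 to 589 CPM with NRas and did not pass. C4bp, Cfi and Vtn, which restrain C4b, C3b and the terminal pore, passed in none of the 5 comparisons, with log2 values from −0.53 to 0.06.

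Clotting begins with the contact factors F12, Klkb1 and Kng1 and the intrinsic proteases F11 and F9, or with F7 in the extrinsic route, and both reach F10, F5 and F2. Of the 5 contact and intrinsic genes, F9 fell in SB + TAA, c-Met + TAA and NRas + TAA, and Klkb1 in both NRas groups. Klkb1 encodes plasma prekallikrein (chromosome 8, 45266689 to 45294859, minus strand) and was at 335, 313, 279 and 292 CPM in SB + saline. In NRas + TAA it was at 76.4, 69.4, 167, 167 and 47.6 CPM, all below the controls, with replicates 3 and 4 the highest (−1.53 ± 0.37, edgeR adjusted p = 0.00744, passed in all 33 settings). In NRas + saline it ran from 43.8 CPM in replicate 3 to 256 in replicate 1 (−1.21 ± 0.39, adjusted p = 0.0499), and this call passed in 7 of the 24 fits that each left out 1 liver.

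Klkb1 did not pass in SB + TAA (123, 237, 125 and 100 CPM), c-Met + saline (311, 149 and 250 CPM) or c-Met + TAA (196, 124, 99.7 and 149 CPM). Of its exon bases 43.2% are shared with Gm45753, listed at 0 in every liver. The level of Klkb1 is therefore uncertain as far as reads fell on these bases, and none of the 33 settings changed how reads were counted. F9, the hemophilia B factor on chromosome X (59999464 to 60030759, plus strand), was at 107, 98.3, 108 and 106 CPM in SB + saline. It stood at 72.9, 82.9, 76.2 and 51.7 CPM in SB + TAA, at 71.4, 56.7, 69.3 and 71.6 CPM in c-Met + TAA and at 51.4, 62.2, 74.0, 67.7 and 58.6 CPM in NRas + TAA, each group below the controls. The log2 fold changes were −0.56 ± 0.17 (edgeR adjusted p = 0.0479), −0.64 ± 0.17 (adjusted p = 0.0314) and −0.74 ± 0.16 (adjusted p = 0.00389), and none passed with library size alone (adjusted p = 0.367, 0.235 and 0.0705). F12, Kng1 and F11 passed in no comparison, with values from −0.60 to −0.10.

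The 4 extrinsic and common factors all fell in NRas + TAA. F7, which starts the extrinsic route with tissue factor (chromosome 8, 13026034 to 13035809, plus strand), was at 118, 126, 120 and 107 CPM in SB + saline and at 57.1, 55.9, 79.0, 82.2 and 41.6 CPM in that group. Every liver was below the controls (log2 −0.90 ± 0.22, edgeR adjusted p = 0.0097, passed in all 33 settings). F7 also fell in SB + TAA (60.2, 82.9, 73.1 and 44.6 CPM, −0.85 ± 0.24, adjusted p = 0.0305) and in NRas + saline (102, 59.5, 45.2 and 51.8 CPM, −0.87 ± 0.24, adjusted p = 0.0217), with adjusted p of 0.0717 and 0.0627 with library size alone. In the c-Met groups, at 53.7 to 78.7 CPM with saline and 54.9 to 90.5 CPM with TAA, it did not pass (adjusted p = 0.264 and 0.0774).

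F2 encodes prothrombin, from which thrombin is cut (chromosome 2, 91625320 to 91636414, minus strand). It was at 1100, 1161, 1153 and 1214 CPM in SB + saline and at 592, 623, 767, 731 and 578 CPM in NRas + TAA, with no overlap (−0.81 ± 0.17, edgeR adjusted p = 0.00325, passed in all 33 settings). It was at 702, 1037, 742 and 567 CPM in SB + TAA, at 1041, 684, 669 and 634 CPM in NRas + saline and at 852, 627, 738 and 747 CPM in c-Met + TAA. These 3 groups were also below the controls, at log2 fold changes of −0.60, −0.61 and −0.64 (adjusted p = 0.0498, 0.0377 and 0.0472). They did not pass with library size alone (adjusted p = 0.249, 0.286 and 0.22), and the call in SB + TAA passed in 6 of the 24 fits that each left out 1 liver. In c-Met + saline F2 was at 898, 713 and 930 CPM (−0.45, adjusted p = 0.443).

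F5 encodes factor V, the cofactor of factor X on the prothrombin complex (chromosome 1, 164151838 to 164220277, plus strand). Its levels were 418, 474, 395 and 437 CPM in SB + saline, 224, 351, 247 and 192 CPM in SB + TAA and 251, 263, 288, 257 and 230 CPM in NRas + TAA. Neither group overlapped the controls (−0.77 ± 0.18, edgeR adjusted p = 0.0119, and −0.74 ± 0.17, adjusted p = 0.00575), and with library size alone the adjusted p were 0.092 and 0.122. It did not pass at 317 to 440 CPM in c-Met + saline, 271 to 319 CPM in c-Met + TAA and 207 to 384 CPM in NRas + saline. F10, the protease that cuts prothrombin, fell in NRas + saline (−0.65, adjusted p = 0.0301) and NRas + TAA (−0.69, adjusted p = 0.0134), in neither with library size alone.

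Of the 4 genes of the clot itself, F13b fell in NRas + TAA and the others passed nowhere. Fibrinogen is built from the chains of Fga, Fgb and Fgg, which lie together on chromosome 3 (Fga 83026076 to 83033627, Fgb 83040141 to 83049863 and Fgg 83007724 to 83015049), and 0 of the 3 passed in any comparison. The promoters of Fga (chr3:83025903-83026202) and Fgb (chr3:83049814-83050113), from the same RefSeq table, are shown because these chains kept the steadiest of the ratios computed. Both hold the partial HNF1 motif and the STAT and C/EBP motifs spelled out with the C8 genes, in capitals.
Fga: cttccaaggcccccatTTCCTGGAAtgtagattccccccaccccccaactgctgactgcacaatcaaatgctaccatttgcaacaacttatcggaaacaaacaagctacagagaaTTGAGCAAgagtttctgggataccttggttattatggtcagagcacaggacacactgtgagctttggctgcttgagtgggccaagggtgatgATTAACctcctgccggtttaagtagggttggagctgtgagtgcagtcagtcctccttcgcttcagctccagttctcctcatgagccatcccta
Fgb: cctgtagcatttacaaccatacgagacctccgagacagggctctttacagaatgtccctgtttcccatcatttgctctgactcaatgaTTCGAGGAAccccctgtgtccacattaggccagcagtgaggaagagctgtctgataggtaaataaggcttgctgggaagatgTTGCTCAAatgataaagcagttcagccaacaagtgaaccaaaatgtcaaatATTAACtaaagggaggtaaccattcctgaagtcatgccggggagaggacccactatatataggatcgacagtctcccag
Fgb was at 3479, 4923, 5050 and 5319 CPM in SB + saline and at 6385, 4128, 5302 and 4972 CPM in SB + TAA, so the groups overlapped (0.15 ± 0.22). It was at 3206, 2546 and 3333 CPM in c-Met + saline, where all 3 livers lay below the controls without passing (−0.63 ± 0.24, edgeR adjusted p = 0.334).

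Fgb was at 3436, 2650, 5150 and 3899 CPM in c-Met + TAA, at 5404, 3180, 5100 and 3645 CPM in NRas + saline and at 3317, 2830, 3752, 4061 and 3568 CPM in NRas + TAA. All 3 groups overlapped the controls. The log2 values of Fga were 0.10, −0.57, −0.33, −0.12 and −0.45 in SB + TAA, c-Met + saline, c-Met + TAA, NRas + saline and NRas + TAA, and those of Fgg were 0.09, −0.82, −0.56, −0.21 and −0.47. Fga ran from 884 to 2594 CPM and Fgg from 1294 to 4466 CPM over the 24 livers. The ratio of Fgb to Fga counts stayed between 2.45 and 3.05 in all 24 livers, while that of Fgg to Fga ran from 1.24 to 2.32. F13b, the carrier subunit of the factor that crosslinks fibrin, fell in NRas + TAA (−0.68, adjusted p = 0.0266, and 0.202 with library size alone).

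**Figure D4:**
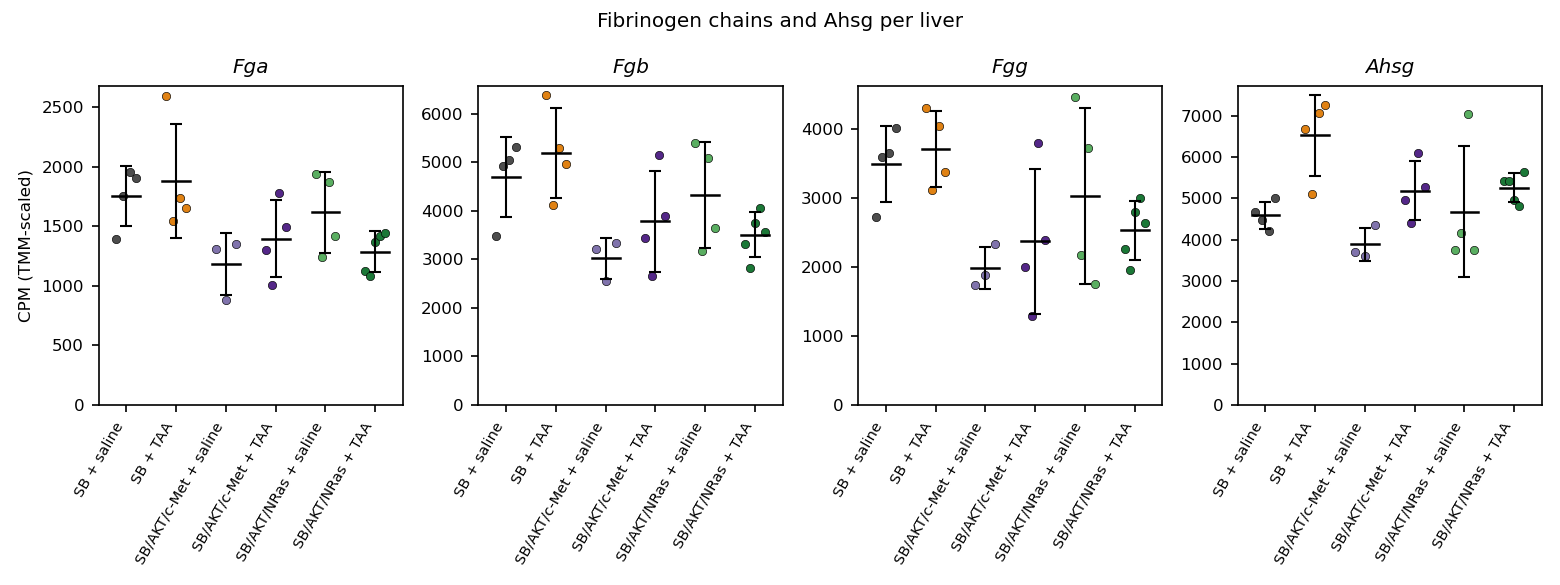
The dot plots show CPM (vertical axis, from 0) of the fibrinogen chains Fga, Fgb and Fgg and of Ahsg in each liver by group, with the group mean as a line and ± SD as bars. The fibrinogen chains overlap the controls in every group but c-Met + saline, and Ahsg lies above all controls in SB + TAA without passing the test by TMM (adjusted p = 0.133); by library size alone it passes there (adjusted p = 0.00689).

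Of the 5 inhibitors of coagulation, Proc fell in 4 groups, Proz in 2, and Serpinc1 and Serpind1 in 1 each. Proc encodes protein C, which as a protease inactivates factors V and VIII (chromosome 18, 32123129 to 32139570, minus strand), and was at 448, 435, 408 and 468 CPM in SB + saline. It was at 247, 393, 252 and 177 CPM in SB + TAA, at 267, 206, 238 and 252 CPM in c-Met + TAA and at 189, 196, 280, 286 and 195 CPM in NRas + TAA. In NRas + saline it was at 391 in replicate 1 and at 232, 212 and 222 CPM in the others. All 4 groups lay below the controls, with log2 fold changes of −0.72 ± 0.21 (edgeR adjusted p = 0.0382), −0.87 ± 0.21 (adjusted p = 0.0153), −0.94 ± 0.20 (adjusted p = 0.00279) and −0.74 ± 0.21 (adjusted p = 0.0271). With library size alone those in c-Met + TAA and NRas + TAA still passed (adjusted p = 0.0441 and 0.00982). c-Met + saline, at 333, 292 and 339 CPM, was below the controls without passing (−0.45, adjusted p = 0.508).

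Serpinc1, which encodes antithrombin, fell in NRas + saline (−0.67, edgeR adjusted p = 0.0449, and 0.175 with library size alone). Serpind1, heparin cofactor II, fell in NRas + TAA (−0.76, adjusted p = 0.00428, passed in all 33 settings). Proz, the cofactor for the inhibition of factor X (chromosome 8, 13060914 to 13076026, plus strand), was at 229, 242, 216 and 228 CPM in SB + saline and at 191, 119, 79.5 and 112 CPM in NRas + saline, all below the controls (−0.87 ± 0.23, adjusted p = 0.0168, and 0.0597 with library size alone). In NRas + TAA it was at 128, 121, 173, 194 and 109 CPM (−0.66, adjusted p = 0.048, and 0.263 with library size alone). It did not pass at 137 to 189 CPM in SB + TAA, 102 to 206 in c-Met + saline and 164 to 226 in c-Met + TAA. Pros1, the cofactor of protein C, had values above 0 in both NRas groups (0.49 and 0.47, adjusted p = 0.167 and 0.153), and with library size alone it was called higher in both (0.94 and 0.89, adjusted p = 0.00665 and 0.0061).

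Fibrinolysis is carried by Plg, plasminogen (chromosome 17, 12378609 to 12419384, plus strand), which was at 848, 768, 745 and 775 CPM in SB + saline. It was at 681, 403, 390 and 419 CPM in NRas + saline and at 370, 349, 533, 512 and 351 CPM in NRas + TAA, below the controls in both. The log2 fold changes were −0.73 ± 0.21 (edgeR adjusted p = 0.026, and 0.132 with library size alone) and −0.89 ± 0.19 (adjusted p = 0.00367, passed in all 33 settings). Plg was below the controls without passing in SB + TAA (348 to 591 CPM, adjusted p = 0.054), c-Met + saline (348 to 592 CPM, adjusted p = 0.269) and c-Met + TAA (474 to 571 CPM, adjusted p = 0.106). Hrg, a plasma glycoprotein that binds plasminogen and heparin (chromosome 16, 22951072 to 22961656, plus strand), was at 531, 453, 476 and 500 CPM in SB + saline and at 394, 289, 209 and 245 CPM in NRas + saline (−0.79 ± 0.21, adjusted p = 0.0172, and 0.0944 with library size alone). It did not pass in the other groups, at 205 to 482 CPM in SB + TAA, 304 to 374 in c-Met + saline, 297 to 475 in c-Met + TAA and 317 to 377 in NRas + TAA. Serpinf2 and Cpb2, which slow plasmin, passed nowhere (log2 −0.59 to −0.06).

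Ahsg, fetuin-A, a mineral-binding glycoprotein, was the most abundant of the 40 genes per length, at 3120 CPM per kilobase of exon in SB + saline. It was followed by Fgg at 1670 and Fgb at 1230, and the lowest were Masp1 at 2.93 and Cfb at 0.593. The libraries were primed at the poly(A) tail, so this scale can understate long genes. By CPM without the length, the SB + saline mean of Fgb was above that of Ahsg, at 4690 against 4590. Ahsg (chromosome 16, 22892042 to 22899438, plus strand) was at 4663, 4488, 4217 and 5004 CPM in SB + saline and at 6674, 5110, 7063 and 7253 CPM in SB + TAA. All 4 TAA livers were above the controls, without passing the test (0.51 ± 0.20, edgeR adjusted p = 0.133). It was at 3604 to 4347 CPM in c-Met + saline, 4398 to 6107 in c-Met + TAA, 3757 to 7040 in NRas + saline and 4815 to 5648 in NRas + TAA. These 4 groups had log2 values of −0.24, 0.17, 0.03 and 0.19 and did not pass. Scaled by library size alone Ahsg was called higher in SB + TAA (0.91) and in NRas + TAA (0.61, adjusted p = 0.0357).

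**Figure D5:**
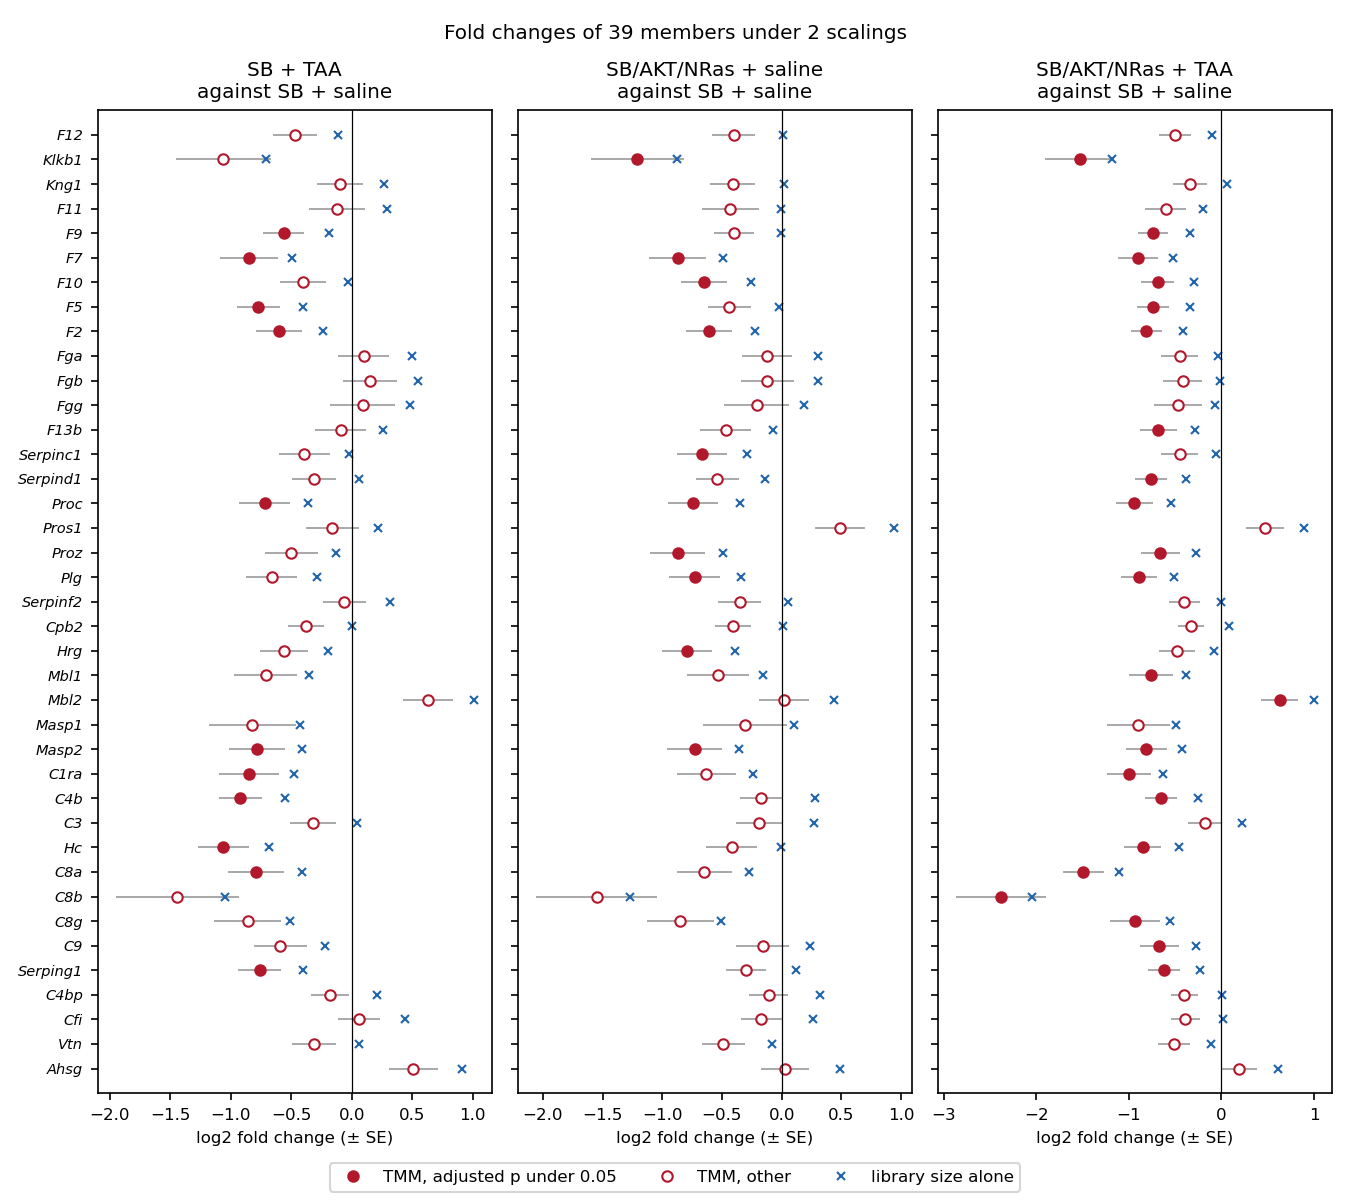
The plot shows the log2 fold change against SB + saline (horizontal axes) of 39 genes (Cfb left out for its low counts) in 3 groups (panels differ in the range of the axis), by TMM with the SE (circles, filled where the edgeR adjusted p was under 0.05) and by library size alone (crosses). The crosses lie to the right of the circles by a similar distance for every gene, so that genes with small falls by TMM, such as Serpinf2 and Cfi in NRas + TAA, sit at about 0, while C8a, C8b and Klkb1 in NRas + TAA stay well below it.

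The calls varied with the livers included. The shares of all genes called in these fits are not given here, so the shifts are not read as particular to the 40 genes. In SB + TAA 2 genes fell without its replicate 4, the liver with muscle transcripts, 5 without its replicate 1, 7 without its replicate 3 and 17 without its replicate 2. Without one of the SB + saline livers 4 to 6 fell, and 17 without NRas + saline replicate 1. In NRas + saline 21 were called without its replicate 1, 2 without its replicate 2, 0 without its replicate 3 or 4, and 2 to 5 without one of the controls. In c-Met + TAA 1 to 3 were called without its replicate 2, 3 or 4 or without SB + saline replicate 1, 3 or 4, and 14 without NRas + saline replicate 1. In NRas + TAA the count stayed between 16 and 24 of 40. Without both SB + TAA replicate 4 and NRas + saline replicate 1 the counts were 6 in SB + TAA, 21 in NRas + saline, 17 in c-Met + TAA and 25 in NRas + TAA. Of the 49 calls in these 4 comparisons, 12 passed in every one of the 33 settings: C4b and Hc in SB + TAA, C8a in c-Met + TAA, and Klkb1, F7, F2, Serpind1, Proc, Plg, C1ra, C8a and C8b in NRas + TAA.

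Adding oncogenes to injury, or injury to oncogenes, changed none of the 40 genes past the edgeR test with TMM. By edgeR 0 of 40 were called in c-Met + TAA or NRas + TAA against SB + TAA, where 0.402% and 1.47% of all genes were called. An unadjusted p under 0.05 was found for 8 and 9 of the 40, against 8.91% and 11.2% of all genes. DESeq2 and limma-voom also called 0 in both. Against their own saline groups 0 were called by edgeR (background 0.237% for c-Met and 0.175% for NRas), with 2 and 6 at an unadjusted p under 0.05 (background 8.69% and 8.65%). DESeq2 called 0 and 1, with its shares of all genes not given here. With library size alone edgeR called C8a lower in NRas + TAA, at a log2 fold change of −0.70 against SB + TAA (adjusted p = 0.0358) and −0.83 against NRas + saline (adjusted p = 0.0396), and it was also the gene that DESeq2 called in the second of these (adjusted p = 0.0198). The NRas and c-Met groups were compared without and with TAA, and edgeR, DESeq2 and limma-voom each called 0 of the 40 genes in both (background by edgeR 0.134% and 0.0103%). At an unadjusted p under 0.05 there were 3 and 1 (background 9.45% and 4.61%).

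A further contrast asked whether TAA changed the oncogene livers by more or less than it changed those with transposase alone. The median of this difference over the 40 genes was 0.36 (log2) with c-Met and 0.37 with NRas, against medians of −0.06 and −0.11 over all genes. By edgeR 0 genes passed in either (smallest adjusted p of 0.384 and 0.149), where 0.0103% and 0.758% of all genes did. At an unadjusted p under 0.05 by edgeR there were 9 and 7, against 8.45% and 14.9% of all genes. DESeq2 called 2 and 0, with its shares of all genes not given here. With library size alone the medians were 0.11 and −0.01, against −0.33 and −0.52 over all genes. Without NRas + saline replicate 1, 6 genes passed for NRas, and 1 without SB + TAA replicate 2, with the shares of all genes in these fits not given here.

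Other genes of the same pathways, from lists written with earlier results known, moved in both directions. Of 25 further coagulation and fibrinolysis genes, 3 rose and 3 fell in SB + TAA, 2 rose and 1 fell in c-Met + saline, 4 and 3 in c-Met + TAA, 6 and 1 in NRas + saline, and 4 and 4 in NRas + TAA. The plasminogen receptor genes S100a10 and Anxa2 rose in all 5 comparisons, Anxa2 from 22.7 ± 5.01 CPM in SB + saline (mean ± SD) to between 173 and 315 CPM. S100a10 went from 191 ± 13.3 CPM to between 370 and 623. Hgfac, the activator of hepatocyte growth factor, fell in SB + TAA (−0.83), c-Met + TAA (−1.18) and NRas + TAA (−1.29), as did Serpine2, a thrombin inhibitor (−1.58, −2.77 and −1.92, edgeR adjusted p = 0.0416, 0.00222 and 0.00626).

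Of 29 further complement genes, 1 rose and 5 fell in SB + TAA, 0 passed in c-Met + saline, 3 fell in c-Met + TAA, 3 rose and 4 fell in NRas + saline, and 4 rose and 8 fell in NRas + TAA. Susd4, a complement regulator, was at 31.4 ± 13.3 CPM in SB + saline and had 0 counts in all SB + TAA livers. C1s1, the partner of C1r in the C1 complex, fell in the 3 TAA groups (−0.80, −0.68 and −0.64, edgeR adjusted p = 0.0106, 0.0336 and 0.0172). Cd59a, which blocks the terminal pore on the body's own cells, fell in SB + TAA (−0.96, adjusted p = 0.00372). Cfd, the factor D protease, was called lower in 4 groups, but its controls held 1 to 69 counts and differed widely among themselves. In the vitamin K cycle, which activates F2, F7, F9, F10, Proc, Pros1 and Proz, the carboxylase gene Ggcx fell in SB + TAA (43.0 ± 10.3 to 22.3 ± 5.12 CPM, adjusted p = 0.0083), Nqo1 rose in c-Met + TAA and both NRas groups, Gas6 rose in both NRas groups and Vkorc1l1 passed nowhere.

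Most calls among other secreted proteins of hepatocytes were falls. Of 17, 3 fell in SB + TAA, 1 rose in c-Met + saline, 3 fell and 1 rose in c-Met + TAA, 5 fell and 1 rose in NRas + saline and 6 fell and 1 rose in NRas + TAA. Serpina7, thyroxine-binding globulin, rose in all 4 oncogene groups, from 27.1 ± 2.69 CPM to 200 ± 58.8 in c-Met + TAA and 203 ± 27.8 in NRas + TAA. Itih1, whose product binds hyaluronan, fell in SB + TAA (−0.76), NRas + saline (−0.92), c-Met + TAA (−0.85) and NRas + TAA (−1.02). Apoa1 fell in both oncogene groups with TAA, and Serpina3k in these and in NRas + saline. Among 18 acute phase genes, 6 fell and 0 rose in SB + TAA, 4 fell and 1 rose in each c-Met group, 1 fell and 5 rose in NRas + saline and 4 fell and 3 rose in NRas + TAA. Saa1 was at 2620 ± 1750 CPM in SB + saline and 134 ± 26.3 in NRas + TAA, Saa4 at 314 ± 88.4 and 103 ± 27.2, Orm2 at 46.6 ± 34.3 and 466 ± 149, and Lcn2 at 43.0 ± 25.4 and 620 ± 488.

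Of 16 transcription factors of liver genes, 3 fell in SB + TAA, 0 passed in c-Met + saline, 1 fell in c-Met + TAA, 3 in NRas + saline and 4 in NRas + TAA, and 0 rose. Prox1 and the nuclear receptor gene Nr1i3 fell in SB + TAA and in both NRas groups, Nr1i3 also in c-Met + TAA, and Cebpa in both NRas groups (−0.87 and −1.05, edgeR adjusted p = 0.0488 and 0.00976). Stat3 passed nowhere, at 46.4 to 73.9 CPM in the group means. In the interleukin-6 pathway, which drives the hepatic acute phase, 1 of 12 genes rose and 1 fell in NRas + saline, 1 fell in NRas + TAA and 0 passed in the others, and the receptor gene Il6ra fell in both NRas groups (−1.02 and −1.14, adjusted p = 0.026 and 0.00716). Lif and Il1b stayed at a mean of at most 5.08 CPM in every group and did not pass.

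Cell type markers also differed between the groups. The 9 hepatocyte markers were detected in every group, and summed to 94300 to 114000 CPM in the controls, 78000 to 113000 in SB + TAA, 66300 to 75800 and 57600 to 82400 in the c-Met groups without and with TAA, and 50500 to 84700 and 52000 to 74800 in the NRas groups. Of these, 1, 0, 2, 3 and 4 fell in SB + TAA, c-Met + saline, c-Met + TAA, NRas + saline and NRas + TAA. The 10 pericentral hepatocyte markers had a sum between 2940 and 4970 CPM in the controls and between 591 and 1430 CPM after TAA alone, and 5, 0, 4, 3 and 5 of them fell in the same order. The 8 periportal markers summed to 3540 to 4380 CPM in the controls, 3200 to 4380 after TAA alone, 2810 to 3610 and 2980 to 3700 in the c-Met groups without and with TAA, and 1310 to 3380 and 2310 to 3730 in the NRas groups. Of them 0, 0, 0, 4 and 1 fell in the same order and 1 rose in NRas + saline, where every sum was below every control.

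Of 10 markers of monocyte-derived macrophages, 6, 1, 8, 9 and 10 rose in the same order. Their sums were 122 to 195 CPM in SB + saline, with 1 gene at 0 in all 4 livers, 332 to 515 in SB + TAA, 131 to 681 and 461 to 931 in the c-Met groups without and with TAA, and 284 to 9080 and 390 to 5250 in the NRas groups. Of 11 stellate cell and fibroblast markers 5, 0, 1, 6 and 4 rose, and of 8 bile duct markers 0, 0, 0, 4 and 2. The bile duct sum reached 9040 CPM in NRas + saline against at most 98.2 in SB + saline, and Spp1 is in this list and in the macrophage list. The part of these cell types in the falls of the coagulation and complement genes was not tested.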

How the data were processed

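Total RNA of bulk liver was sequenced from 24 mice. The authors demultiplexed reads with Sabre, aligned them to GRCm38 with STAR through RNAsik, removed duplicates by molecular identifier and counted forward-stranded reads of mapping quality 10 or more per gene with featureCounts (1.6.4). The deposited values are raw counts per gene, and gene lengths were taken from the deposited featureCounts table. Groups followed the labels. Counts were fitted with edgeR (4.0.16, R 4.3.3) as 6 group means over the 24 livers, with TMM scaling, genes of at least 0.5 CPM in at least 2 livers, quasi-likelihood tests and Benjamini-Hochberg adjustment over 19381 genes, and "rose" or "fell" means an adjusted p under 0.05. Standard errors of edgeR fold changes were derived from the test, as the absolute log2 fold change divided by the square root of F. The members and gene lists were chosen with earlier results of these data known.

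Members were described liver by liver if they were among the 10 with the smallest p of the F test or, in a comparison, among the called genes of largest change, and Fga, Fgb, Fgg and Ahsg always. Genes of other lists were those with the smallest p of the F test. Mbl2 and the count ratios were added after their values were seen. Alternatives were limma-voom (limma 3.58.1), DESeq2 (1.42.0), RLE factors, library size alone, no filter, filterByExpr, a replicate block, only the groups compared, and leaving out each liver. The scripts were tested on simulated data. Replicate numbers did not pair the livers: the mean correlation of deviations was −0.00717 over 55 same-numbered pairs and 0.00211 over 184 others. Motifs and promoters were read from RefSeq GRCm38.p6. Figures were drawn with matplotlib (3.10.9).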

Additional observations from a re-analysis of the deposited data

Results flagged for a closer look

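Of 115 sets of 4 or 5 livers examined for a single liver far from the others, 8 were flagged by Dixon's ratio, and chance flags about 1 in 20. NRas + saline replicate 1 stood above the rest of its group in Proc (391 CPM, others 212 to 232), F9 (111 CPM, others 64.8 to 72.6), F2 (1040 CPM, others 634 to 684) and Plg (681 CPM, others 390 to 419). NRas + saline replicate 3 was the highest of its group in Ahsg (7040 CPM, others 3760 to 4160) and in the share of counts taken by the 40 genes (3.69%, others 2.87% to 2.95%). In c-Met + TAA, replicate 2 was lowest in F9 (56.6 CPM, others 69.3 to 71.6) and replicate 1 highest in Proz (226 CPM, others 164 to 172).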

How the results depend on the processing

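The counts of called coagulation and complement genes moved with the processing, and the causes were not tested. None of the 49 called changes reversed its direction in any setting, but they were picked because they were called, so this is no sign of stability. Over all 40 genes, 5 to 14 per comparison with SB + saline passed from below to above 0 with library size alone. DESeq2 called 17 in SB + TAA, 1 in c-Met + saline and 13 in c-Met + TAA against SB + saline. It also called 1 in NRas + TAA against NRas + saline and 2 in the c-Met contrast of TAA effects. Its likelihood ratio test across the 6 groups, used in place of the F test, called 27. Library size alone gave 4, 2, 3 and 13 in SB + TAA, NRas + saline, c-Met + TAA and NRas + TAA, and 1 in NRas + TAA against SB + TAA and against its saline group. No filter gave 2 in c-Met + saline, 12 in c-Met + TAA, 2 in NRas + TAA against SB + TAA, 1 against its saline group and 24 by the F test. Fitting only the groups compared gave 4 in c-Met + saline, 2 in NRas + saline, 22 in c-Met + TAA and 1 in c-Met + TAA against its saline group. With a replicate block the counts were 7 in SB + TAA, 12 in NRas + TAA and 7 by the F test, and 30 of the 49 calls passed. Leaving out both livers that stood apart, chosen after seeing the data, gave 6 in SB + TAA, 1 in c-Met + saline, 21 in NRas + saline, 17 in c-Met + TAA, 2 in NRas + TAA against SB + TAA, 1 in NRas + saline against c-Met + saline, 2 in the NRas contrast of TAA effects and 26 by the F test. Leaving out 1 liver gave 2 to 17 in SB + TAA, 0 to 21 in NRas + saline, 1 to 14 in c-Met + TAA, 16 to 24 in NRas + TAA, 0 to 1 in NRas + TAA against SB + TAA and against its saline group, 0 to 6 in the NRas contrast and 4 to 25 by the F test. Of the 49 calls, limma-voom kept 48, DESeq2 49, RLE factors 49, filterByExpr 49 and library size alone 15. The labels do not say whether the livers shared a batch, and at 9 to 29 counts per liver for Masp1 and 0 to 6 for Cfb small changes were not detectable.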
